A study of Mus musculus with 21 samples.

Results

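The mature miRNAs described here across the development of the mouse auditory system are best known from inflammation: mmu-miR-21a-5p, mmu-miR-21a-3p, mmu-miR-146a-5p, mmu-miR-146b-5p and mmu-miR-155-5p (the species prefix is left out below), 5 of the 1647 mature miRNAs in the count table. They were chosen by name, for their known link to inflammation, by a rule that uses no measured value, although earlier results of these data were known when it was set. Small RNA had been sequenced from untreated wild-type (WT) mice, in the cochlea, labelled as inner ear sensory epithelium (C57BL/6JOlaHsd mice), and in the superior olivary complex (SOC), a group of auditory brainstem nuclei labelled as neuronal (C57Bl6/J mice). The ages were embryonic day 16 (E16), the day of birth (P0) and postnatal day 16 (P16), the last of which lies after the onset of hearing. There were 2, 4 and 4 cochlea libraries at E16, P0 and P16, and the SOC had 4, 4 and 3, which made 21 in all. Each library came from tissue pooled over several animals. Cochlea RNA was taken up with a Direct-zol kit and made into SMARTer smRNA-Seq libraries, and SOC RNA with an innuPREP miRNA kit and made into TruSeq Small RNA libraries, so that a difference in level between the organs and a difference between the kits cannot be told apart.

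A miRNA gene is transcribed into a hairpin, from which Dicer cuts a duplex of a 5p and a 3p strand, and the strand loaded into an Argonaute protein represses mRNAs that pair with its seed, bases 2 to 8. miR-21 is abundant in many tissues, rises in injured and inflamed ones, and represses Pdcd4, an inhibitor of translation. miR-146a and miR-146b are induced through NF-kB downstream of Toll-like receptors and repress the adaptors Traf6 and Irak1, which makes them brakes on that pathway, whereas miR-155 is induced in activated macrophages, microglia and lymphocytes and represses Socs1 and Inpp5d, which themselves restrain inflammatory signalling.

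The mature sequences, taken from RefSeq for GRCm38.p6 and shown because their seeds divide the members into families, are given 5′ to 3′ with the seed in capitals.
miR-21a-5p: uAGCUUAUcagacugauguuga
miR-21a-3p: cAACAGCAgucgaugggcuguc
miR-146a-5p: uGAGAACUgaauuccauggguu
miR-146b-5p: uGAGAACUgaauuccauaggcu
miR-155-5p: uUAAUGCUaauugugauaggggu
miR-146a-5p and miR-146b-5p have the seed GAGAACU in common and differ only by the substitutions G18A and U21C, with positions counted from the 5′ end of miR-146a-5p. No other miRNA with a listed sequence, out of 1415 matched in the table, had the seed of any member. Reads that end before position 18 cannot be assigned to one of the pair, and how such reads were counted is not given in the sources used here.

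The hairpins lie at 4 places in GRCm38, annotated by GENCODE. Mir21a (chr11:86584067-86584158, minus strand) overlaps an exon of the protein-coding gene Vmp1 that is annotated as UTR, on the same strand. Mir146, the gene of miR-146a (chr11:43374397-43374461, minus strand), overlapped no other annotated gene. Mir146b (chr19:46342762-46342870, plus strand) lies inside a transcript of Mfsd13a but in none of its exons, hence in an intron. Mir155 (chr16:84714140-84714204, plus strand) lies in an exon of its host lincRNA Mir155hg. miR-146a and miR-146b are thus transcribed from different chromosomes although their products differ at 2 bases.

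Depth set the smallest step in each value. The standard error of the log2 change of miR-21a-5p from E16 to P0 was 0.42 in the cochlea and 0.42 in the SOC. These values rest on fits with 6272 degrees of freedom (cochlea) and 12.36 (SOC), so their match does not show a like precision. The cochlea libraries held 124400 to 447419 counts and the SOC libraries 8309669 to 18053698, so that 1 count was worth 5.45 CPM, the count scaled to a TMM-normalized library size, in a cochlea library of median size and 0.0926 CPM in an SOC library of median size. A library in each organ stood apart. In cochlea P16 replicate 2, a list of 10 other miRNAs linked to NF-kB, led by miR-125a-5p and miR-125b-5p, held 116500 of the 198434 counts, and its 907100 CPM compared with 331600 to 436600 CPM in the other P16 libraries. In SOC P0 replicate 4, 5 neuronal marker miRNAs summed to 42280 CPM against 11770 to 13450 CPM in the other P0 libraries and 21670 to 41850 CPM at P16. The endothelial marker miR-126a-3p was at 7482 CPM in that library, against 821 to 1361 CPM in the other P0 libraries and 1028 to 6156 CPM at P16. Not every miRNA was near its P16 level there: miR-10a-5p was at 29.5 CPM, against 0.957 to 1.32 CPM at P16. The neuronal list lay at 475 to 2555 CPM over the cochlea libraries and at 6136 to 42280 CPM in the SOC, as the organ labels have it. The list of 9 sensory and epithelial markers lay at 19150 to 77700 CPM in the cochlea, but at 85780 to 166000 CPM in the SOC at E16 and 565 to 3522 CPM in the SOC at P16. The SOC sum at E16 came mostly from 2 of the 9, miR-182-5p with a mean of 92120 CPM and miR-183-5p with 36460 CPM. The epithelial markers miR-429-3p and miR-200c-3p were at 219 and 212 CPM there against 14890 and 2555 CPM in the cochlea at E16, and miR-200a-3p, miR-200b-3p and miR-141-3p were at or below 0.828 CPM against 20.7 to 99.7 CPM. miR-205-5p and miR-96-5p went the other way, at 696 and 211 CPM there against 216 and 95.7 CPM in the cochlea at E16. In the SOC, miR-205-5p was then at 9.08 CPM at P0 and 1.35 CPM at P16.

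The SOC libraries also fell into 3 sets by the shares of 2 miRNAs that are no members, and no label names such sets. Set A, E16 and P0 replicates 2 and 3, had 17.2% to 19.6% of its counts in miR-99b-5p. Set C, P0 replicate 4 and P16 replicates 2 and 3, had 0.278% to 0.322% in miR-191-5p, which held 3.84% to 8.15% elsewhere in the SOC. Set B held E16 replicates 1 and 4 and replicate 1 of P0 and of P16. Set A has no P16 library and set C no E16 library, and values within the sets are therefore given beside the SOC results.

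In the cochlea, miR-21a-5p fell sharply between E16 and P0 and lay between those levels at P16. It was counted at 1169 and 1955 CPM in the 2 E16 libraries, from 430 and 1125 counts. At P0 the 4 libraries had 262, 146, 141 and 200 CPM, from 22 to 49 counts each. At P16 they had 883, 195, 531 and 461 CPM. Every P0 library lay below every E16 library, every P16 library did as well, and P16 replicate 2 lay among the P0 libraries. The group means were 1562 ± 556 (SD, n = 2), 187 ± 56.5 (SD, n = 4) and 518 ± 284 (SD, n = 4) CPM, and among all miRNAs listed miR-21a-5p ranked 68 at E16, 175 at P0 and 91 at P16.

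The fall from E16 to P0 was 8.31-fold (log2 fold change -3.06 ± 0.42 SE, edgeR FDR = 4.22e-11), and a miRNA was called differentially expressed where the FDR was under 0.05, the fold change over 1.5 and the libraries of the 2 ages did not overlap. The SE and FDR values of the cochlea fit rest on a spread pooled over all miRNAs tested, not on that of each miRNA alone. Together with miR-146a-5p and miR-146b-5p, 3 of the 4 members tested in the cochlea were called at P0, all of them lower, where 24.4% of the 896 miRNAs tested were called and 16.6% were called lower. Between E16 and P16 the fall of miR-21a-5p was 3.00-fold (log2 fold change -1.58 ± 0.41 SE, edgeR FDR = 0.000802), the only call among the 4 members where 29.6% of all miRNAs tested were called and 18.6% were called lower. Without E16 replicate 2, which had the higher level, that difference was -1.32 (log2) with an FDR of 0.0674 by edgeR. From P0 to P16 miR-21a-5p was 2.77-fold higher (log2 fold change 1.47 ± 0.37 SE, edgeR FDR = 0.00103) but was not called, because of the overlap through P16 replicate 2; without that library the difference was 1.83 (log2) and called, with an FDR of 1.92e-05 by edgeR. Scaling to library totals without TMM factors moved all cochlea differences from E16 by -0.46 (P0) and -0.51 (P16) on the log2 scale, and the calls against E16 were the same under it.

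**Figure D1:**
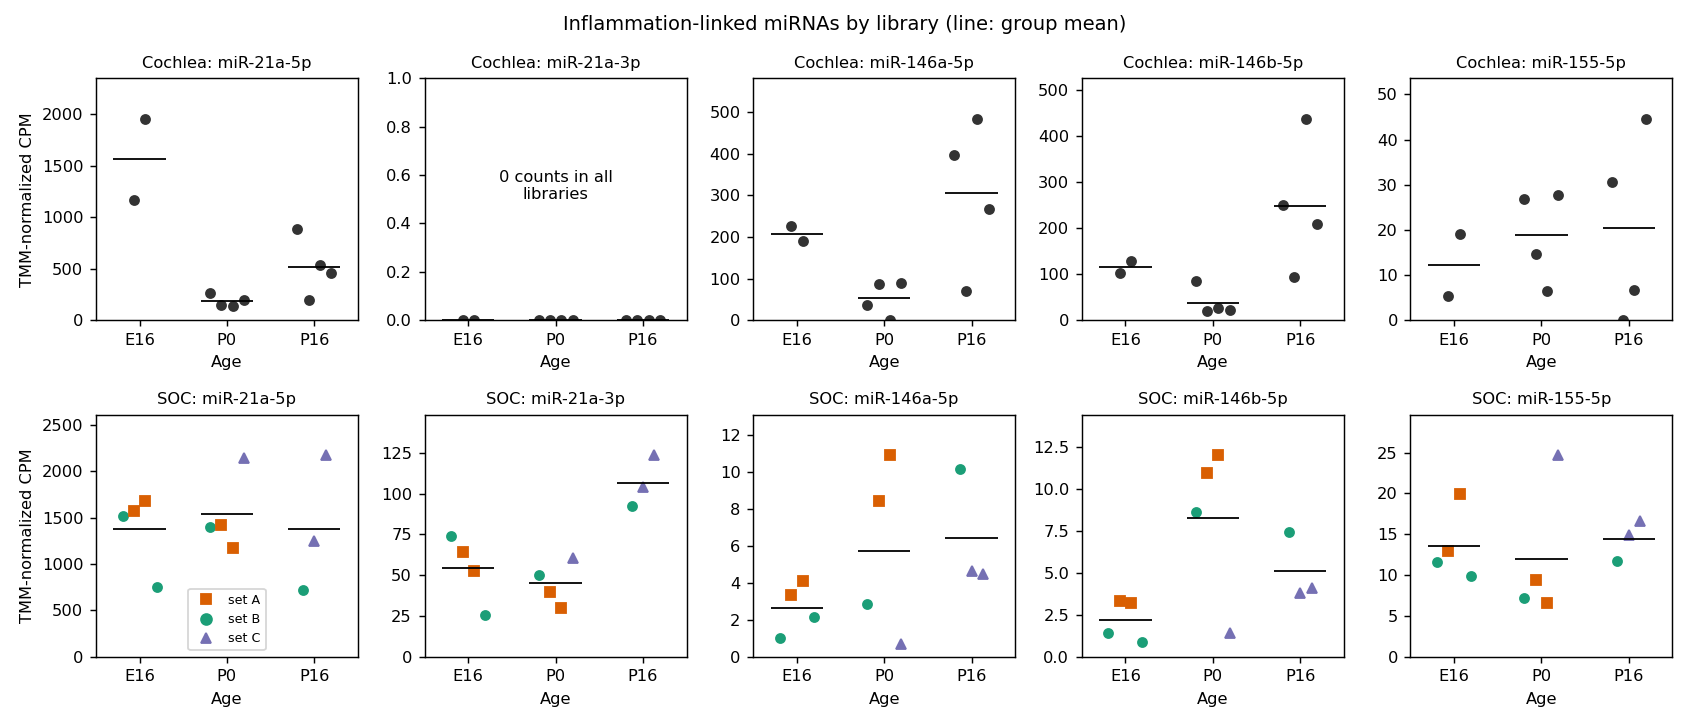
Level of each member in every library as TMM-normalized CPM (vertical axes, linear, different ranges), by age, with the cochlea above and the SOC below. Points are libraries, black lines are group means, and symbols in the SOC mark library sets A, B and C; cochlea miR-21a-5p falls from 1169 and 1955 CPM at E16 to 141 to 262 CPM at P0, while miR-21a-3p is at 0 counts in all 10 cochlea libraries.

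In the SOC, no fall of miR-21a-5p of that size was seen. The E16 libraries had 1521, 1567, 1679 and 753 CPM, the P0 libraries 1399, 1425, 1177 and 2140 CPM, and the P16 libraries 719, 1244 and 2171 CPM. The ages overlapped fully. The means were 1380 ± 423 (SD, n = 4), 1535 ± 418 (SD, n = 4) and 1378 ± 736 (SD, n = 3) CPM, and the rank among all miRNAs was 45, 44 and 46. The log2 fold change from E16 to P0 was 0.15 with a 95% interval, not adjusted for the number of tests, of -0.75 to 1.06 (edgeR FDR = 0.886), and that from P0 to P16 was -0.16 with an interval of -1.14 to 0.83 (edgeR FDR = 0.822), so that changes of either sign up to those bounds remain possible. Within set A the level was 1567 and 1679 CPM at E16 and 1177 and 1425 CPM at P0, both lower than at E16. Within set B it was 753 and 1521 CPM at E16, 1399 CPM at P0 and 719 CPM at P16, and within set C it was 2140 CPM at P0 and 1244 and 2171 CPM at P16.

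The other strand of the same hairpin, miR-21a-3p, had 0 counts in all 10 cochlea libraries, against 2032 counts of miR-21a-5p over those libraries. A count of 0 allows up to 3 counts per library, or 6.69, 16.6 and 20.2 CPM on average at E16, P0 and P16, and over all 10 libraries 0.148 miR-21a-3p counts per 100 of miR-21a-5p; such limits cover counting error only. In the SOC the median was 3.56 miR-21a-3p counts per 100 of miR-21a-5p, a ratio at which 72.4 counts would stand in the cochlea libraries. Of the 208 miRNAs whose mean SOC level was at least that of miR-21a-3p, 65.2 CPM, 5 (2.40%) were at 0 in every cochlea library, the others being miR-216a-5p, miR-873a-5p, miR-1251-5p and miR-3059-5p. miR-21a-3p itself set the lower bound of these miRNAs, so the share is not that of miRNAs of a like level. The organ and the library kit cannot be told apart here.

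In the SOC, miR-21a-3p stood higher at P16 than at the earlier ages. Its level was 73.9, 64.3, 52.8 and 25.9 CPM in the E16 libraries, 49.9, 40.0, 30.1 and 60.5 CPM in the P0 libraries and 92.7, 104 and 123 CPM in the P16 libraries. All 3 P16 libraries lay above all 8 earlier ones. The log2 difference was 0.98 ± 0.41 SE from E16 to P16 (edgeR FDR = 0.0743) and 1.24 ± 0.41 SE from P0 to P16 (edgeR FDR = 0.0544), so neither was called. Both were called by DESeq2, with FDR values of 0.0378 and 0.0148, and under a filter of 10 or more counts in each library, with edgeR FDR values of 0.0461 and 0.0250. Without SOC P0 replicate 4, edgeR gave 1.05 and 1.42 (log2) with FDR values of 0.0384 and 0.0212. When the set entered as a covariate, P16 against P0 was called at 1.04 (log2, edgeR FDR = 0.0301) and P16 against E16 was not, at 0.63 (log2, edgeR FDR = 0.184). Neither was called without the set A libraries, with edgeR FDR values of 0.235 (E16 to P16) and 0.390 (P0 to P16), or without the set C libraries, with 0.171 and 0.0915.

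The ratio of the 2 strands needs no scaling between libraries. Per 100 counts of miR-21a-5p there were 4.86, 4.11, 3.14 and 3.44 counts of miR-21a-3p at E16, 3.56, 2.81, 2.56 and 2.83 at P0, and 12.9, 8.35 and 5.68 at P16. The mean was 3.89 ± 0.762 (SD, n = 4), 2.94 ± 0.435 (SD, n = 4) and 8.98 ± 3.65 (SD, n = 3), and no P16 library overlapped with an earlier one. The log2 ratio of miR-21a-5p to miR-21a-3p was lower by 1.15 at P16 than at E16 and by 1.54 than at P0, each with p = 0.0286 in an exact two-sided permutation test, the smallest p that 3 libraries against 4 allow, and 0.129 after adjustment over the 9 ratio tests. The shift also stood inside the sets: set B went from 3.44 and 4.86 at E16 through 3.56 (P0) to 12.9 (P16), and set C had 2.83 at P0 and 5.68 and 8.35 at P16.

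**Figure D2:**
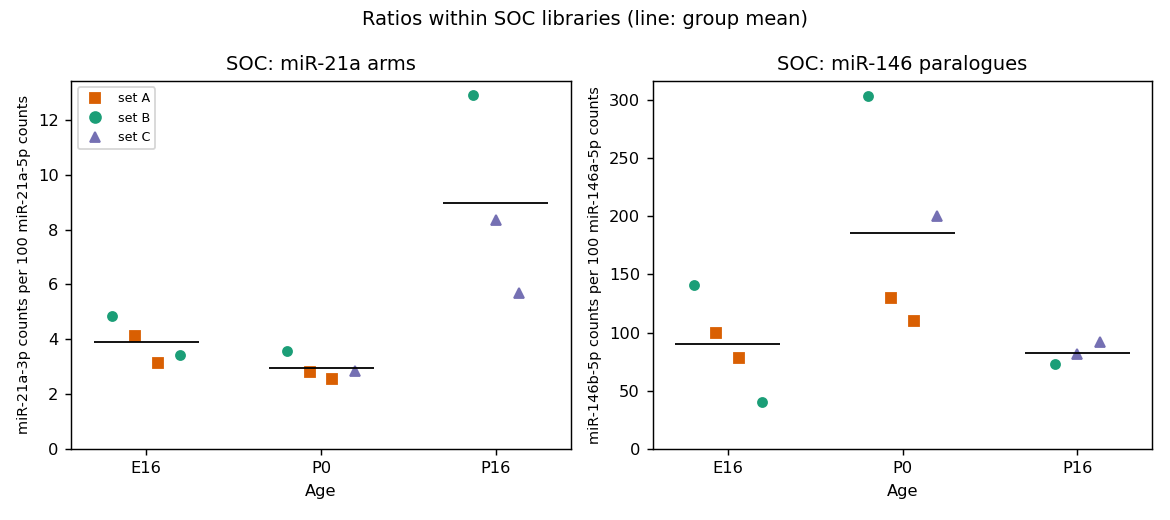
Ratios inside each SOC library by age. The left panel gives miR-21a-3p counts per 100 miR-21a-5p counts, which are 2.56 to 4.86 at E16 and P0 and 5.68 to 12.9 at P16; the right panel gives miR-146b-5p counts per 100 miR-146a-5p counts. Points are libraries with symbols for sets A, B and C, and lines are group means.

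In the cochlea, the NF-kB-induced pair miR-146a-5p and miR-146b-5p fell from E16 to P0 and stood higher again at P16. For miR-146a-5p the E16 libraries had 226 and 189 CPM, from 83 and 109 counts. The P0 libraries had 37.5, 87.7, 0 and 88.7 CPM, from 7, 18, 0 and 16 counts, and all 4 lay below E16. At P16 the level was 398, 70.1, 485 and 268 CPM, with replicate 2 among the P0 values and the other 3 above both E16 libraries. The means were 207.5 ± 25.6 (SD, n = 2), 53.5 ± 42.9 (SD, n = 4) and 305 ± 180 (SD, n = 4) CPM.

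For miR-146b-5p the E16 libraries had 103 and 129 CPM. The P0 libraries had 85.6, 19.5, 25.7 and 22.2 CPM, 3 of them from 4 counts each, and the P16 libraries had 250, 93.4, 438 and 208 CPM. P0 replicate 1, with 16 counts, stood well above the other P0 libraries and just below P16 replicate 2, with 12 counts. The means were 116 ± 17.9 (SD, n = 2), 38.3 ± 31.7 (SD, n = 4) and 247.5 ± 143 (SD, n = 4) CPM.

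Between E16 and P0 the log2 fold change was -1.91 ± 0.51 SE for miR-146a-5p (edgeR FDR = 0.00174) and -1.59 ± 0.56 SE for miR-146b-5p (edgeR FDR = 0.0229). Both calls rested on few counts. Without cochlea E16 replicate 1 the FDR by edgeR was 0.0518 for miR-146a-5p and 0.0829 for miR-146b-5p, and the call for miR-146b-5p was also lost without E16 replicate 2 or P0 replicate 2, 3 or 4, where the edgeR FDR lay between 0.0608 and 0.154. In a fit of all 21 libraries the FDR by edgeR was 0.156 and 0.171.

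Between P0 and P16 miR-146b-5p rose by 2.68 ± 0.50 SE (log2, edgeR FDR = 2.69e-06), the only member called, where 10.5% of all miRNAs tested were called and 3.91% were called higher. miR-146a-5p was higher by 2.48 ± 0.46 SE (log2, edgeR FDR = 2.24e-06) but overlapped through P16 replicate 2, without which the difference was 2.86 (log2) and called. With the criterion on overlap left out, 3 of the 4 members tested passed, where 124 of the 896 miRNAs tested did. The call for miR-146b-5p depended on the narrow gap between P0 replicate 1 and P16 replicate 2: it was lost under totals without TMM factors, with no filter and when any of 7 libraries was left out, although the FDR by edgeR was at most 0.000837 whichever library was left out. Relative to E16, P16 was 0.57 ± 0.51 SE higher for miR-146a-5p (log2, edgeR FDR = 0.380) and 1.09 ± 0.55 SE for miR-146b-5p (log2, edgeR FDR = 0.110), neither of which passed.

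**Figure D3:**
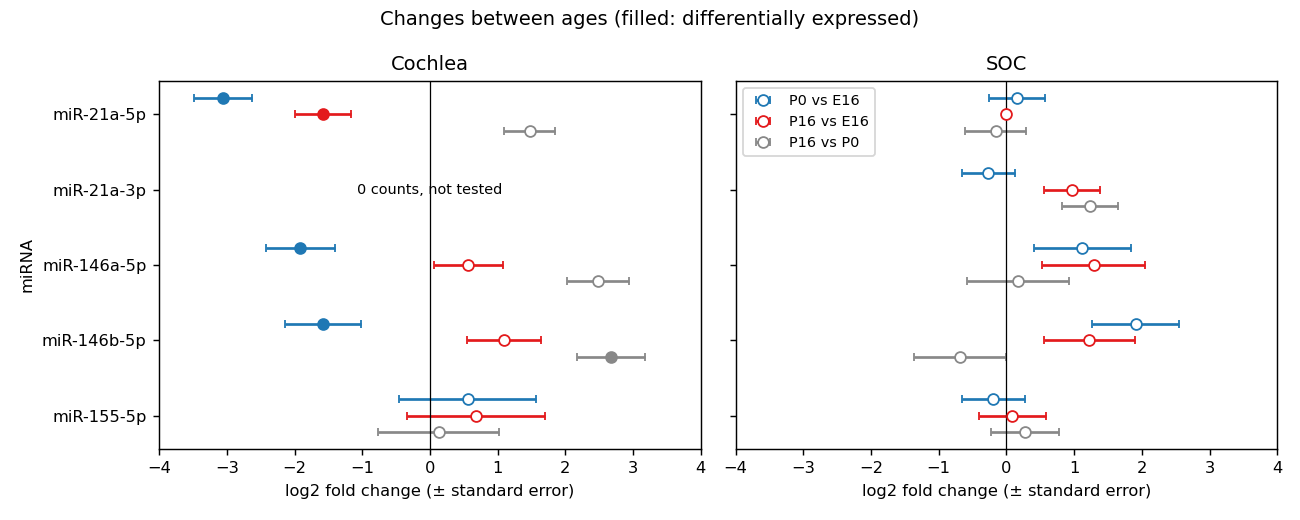
Log2 fold changes (horizontal axis, zero at the vertical line) with standard errors for each member between ages, in the cochlea (left) and the SOC (right). Filled points were called differentially expressed; 3 members are called lower at P0 than at E16 in the cochlea and none is called in the SOC.

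In the SOC both miR-146 members were rare, miR-146a-5p with 6 to 139 counts in a library and miR-146b-5p with at least 10. miR-146a-5p had 0.997, 3.32, 4.10 and 2.17 CPM at E16, 2.85, 8.42, 10.9 and 0.698 CPM at P0 and 10.2, 4.67 and 4.50 CPM at P16. miR-146b-5p had 1.41, 3.32, 3.20 and 0.869 CPM at E16, 8.64, 10.9, 11.99 and 1.40 CPM at P0 and 7.43, 3.82 and 4.12 CPM at P16. The P16 libraries lay above all E16 libraries for both, and P0 replicate 4 lay far below the other P0 libraries. The means of miR-146a-5p were 2.65 ± 1.35 (SD, n = 4), 5.72 ± 4.74 (SD, n = 4) and 6.44 ± 3.22 (SD, n = 3) CPM, and those of miR-146b-5p were 2.198 ± 1.24 (SD, n = 4), 8.24 ± 4.77 (SD, n = 4) and 5.12 ± 2.01 (SD, n = 3) CPM.

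Of the 5 members tested in the SOC, 0 were called at P0 relative to E16, 0 at P16 relative to E16 and 0 at P16 relative to P0 by edgeR, where 6.63%, 41.2% and 16.1% of the 694 miRNAs tested were called. At an unadjusted p under 0.05 by edgeR the counts were 1 (miR-146b-5p), 1 (miR-21a-3p) and 1 (miR-21a-3p), and the share over all miRNAs at that p was not taken. By DESeq2 0, 1 and 1 were called, where 84, 325 and 167 of the 694 miRNAs tested were. For miR-146b-5p the log2 difference from E16 to P0 was 1.91 with a 95% interval of 0.52 to 3.30 (edgeR FDR = 0.0979), and for miR-146a-5p it was 1.12 with an interval of -0.44 to 2.67 (edgeR FDR = 0.395). From E16 to P16 the differences were 1.22 and 1.29 (log2), with edgeR FDR values of 0.156 and 0.187.

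The sets changed this picture. Within set A, miR-146a-5p was at 3.32 and 4.10 CPM at E16 and 8.42 and 10.9 CPM at P0, and miR-146b-5p was at 3.20 and 3.32 CPM and then at 10.9 and 11.99 CPM. Within set B, miR-146a-5p went from 0.997 and 2.17 CPM at E16 through 2.85 CPM at P0 to 10.2 CPM at P16, and miR-146b-5p from 0.869 and 1.41 CPM through 8.64 CPM to 7.43 CPM. Within set C, miR-146a-5p was at 0.698 CPM at P0 and 4.50 and 4.67 CPM at P16, and miR-146b-5p was at 1.40 CPM and then at 3.82 and 4.12 CPM. In each set that held both ages, the later library was above the E16 libraries for both miRNAs.

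With the set as a covariate, the log2 difference from E16 to P16 was 3.13 for miR-146a-5p (edgeR FDR = 4.51e-05) and 2.85 for miR-146b-5p (edgeR FDR = 0.000191), and both were called. Without the set C libraries both were called as well, at 2.12 and 1.93 (log2) with edgeR FDR values of 0.0391 and 0.0315, and miR-146b-5p was also called at P0, at 2.27 (log2) with an edgeR FDR of 0.00717. Without the set A libraries neither was called from E16 to P16, at 2.02 and 2.14 (log2) with edgeR FDR values of 0.137 and 0.135, and miR-146b-5p was not called at P0, at 2.15 (log2) with an edgeR FDR of 0.428. Leaving out SOC P0 replicate 4 alone gave 2.32 (log2) for miR-146b-5p from E16 to P0, with an edgeR FDR of 0.0126. With the set as a covariate, the log2 difference from E16 to P0 was 1.09 for miR-146a-5p (edgeR FDR = 0.0260) and 2.135 for miR-146b-5p (edgeR FDR = 0.000383). From P0 to P16 it was 2.04 (edgeR FDR = 0.00235) and 0.72 (edgeR FDR = 0.198). None of these was called. Overlap was judged on levels not adjusted for set. Set B, the only set with both E16 and P16 libraries, held 1 at P16, and set C held 1 at P0. The sets were found in these counts and named by no label, and what they stand for was not tested.

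**Figure D4:**
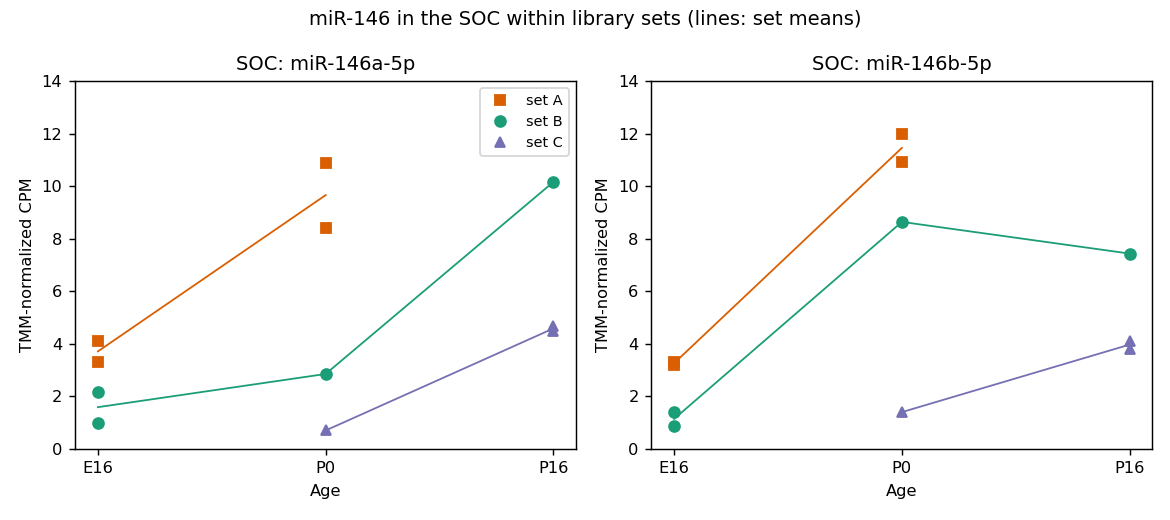
miR-146a-5p (left) and miR-146b-5p (right) in the SOC as TMM-normalized CPM by age, with symbols and lines of set means for library sets A, B and C. Within each set the later ages lie above the earlier ones, except that miR-146b-5p in set B is at 8.64 CPM at P0 and 7.43 CPM at P16.

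No shift in the balance of the pair passed its test. In the SOC there were 40 to 141 counts of miR-146b-5p per 100 of miR-146a-5p at E16, 110 to 303 at P0 and 73.2 to 91.5 at P16. The number of miR-146b-5p counts per 100 of miR-146a-5p was higher at P0 than at E16 in 4 of 4 same-numbered pairs, going from 141 to 303, 100 to 130, 78.05 to 110 and 40 to 200. The last pair, replicate 4, rested on 10 miR-146b-5p and 25 miR-146a-5p counts at E16 and on 12 and 6 at P0. It also joined set B at E16 with set C at P0. The log2 ratio of miR-146a-5p to miR-146b-5p differed by -1.05 between those ages, with p = 0.0857 in an exact permutation test without pairs and 0.125 within pairs, the smallest p that 4 pairs allow. That ratio was higher by 1.05 at P16 than at P0, with no overlap and p = 0.0571 in an exact permutation test, or 0.154 after adjustment over the 9 tests. In the cochlea the smallest p of the 3 comparisons was 0.200 in the same exact permutation test, between P16 and E16. Across the 11 SOC libraries, which have ages and sets in common, the log2 levels of the pair had a Pearson r of 0.815, and across the 10 cochlea libraries 0.692; no test was made of these correlations.

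miR-155-5p, the member most closely tied to activated immune cells, was scarce in both organs at every age. In the cochlea it was counted at 2 and 11 at E16, at 5, 3, 1 and 5 at P0 and at 6, 0, 1 and 6 at P16. These counts are 12.3 ± 9.67 (SD, n = 2), 18.9 ± 10.2 (SD, n = 4) and 20.5 ± 20.8 (SD, n = 4) CPM, and the ages overlapped. In the SOC, where it had 84 to 212 counts in a library, the level was 11.6, 12.96, 20.0 and 9.90 CPM at E16, 7.24, 9.35, 6.58 and 24.7 CPM at P0 and 11.8, 15.0 and 16.7 CPM at P16. Apart from SOC P0 replicate 4 the P0 libraries lay below the E16 libraries, and the means were 13.6 ± 4.43 (SD, n = 4), 11.96 ± 8.55 (SD, n = 4) and 14.5 ± 2.49 (SD, n = 3) CPM.

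The 95% interval of the log2 difference of miR-155-5p from E16 to P0 was -1.43 to 2.54 in the cochlea (edgeR FDR = 0.720) and -1.20 to 0.82 in the SOC (edgeR FDR = 0.867). From E16 to P16 it was -1.32 to 2.69 in the cochlea (edgeR FDR = 0.611) and -0.997 to 1.17 in the SOC (edgeR FDR = 0.902). With so few cochlea counts, a change of severalfold in either direction was therefore not detectable. Within set A the SOC level was 12.96 and 20.0 CPM at E16 and 6.58 and 9.35 CPM at P0, and within set B it was 9.90 and 11.6 CPM at E16, 7.24 CPM at P0 and 11.8 CPM at P16. Set C went the other way between P0 and P16, from 24.7 CPM to 15.0 and 16.7 CPM.

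A change called in an organ and not in the other was tested as such by the interaction of organ and age over all 21 libraries, for the 545 miRNAs that passed the filter in both. From E16 to P0 the SOC change exceeded the cochlea change by 3.08 ± 0.71 SE (log2) for miR-21a-5p (edgeR FDR = 0.00520) and by 3.39 ± 0.95 SE for miR-146b-5p (edgeR FDR = 0.0191). The members that passed were thus 2 of 4, where 11.9% of the miRNAs tested passed. For miR-146a-5p the difference was 2.95 ± 1.11 SE (edgeR FDR = 0.0764), and it passed with DESeq2 at an FDR of 0.0446 and, with edgeR and the set as a covariate, at an FDR of 0.00418. For miR-146b-5p the difference was lost without either of the cochlea E16 libraries, at edgeR FDR values of 0.0517 and 0.0818. That of miR-21a-5p passed whichever library was left out.

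From P0 to P16 the SOC change lay below the cochlea change for miR-146b-5p (SOC minus cochlea -3.40 ± 0.93 SE, log2, edgeR FDR = 0.0244), which made 1 of 4 members where 6.42% of miRNAs passed. That difference was -2.13 (edgeR FDR = 0.0604) with the set as a covariate, and it was lost when any of 8 libraries was left out, at edgeR FDR values of up to 0.0864. From E16 to P16, 0 of 4 members passed in edgeR and in DESeq2 and 0 had an unadjusted p under 0.05, where 16.9% of the miRNAs tested passed in edgeR; for miR-21a-5p the difference was 1.42 ± 0.73 SE (edgeR FDR = 0.183). Since each organ had its own kit, substrain and depth, organ and kit cannot be told apart in these differences either.

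Some marker miRNAs of blood, vessel and neuronal cells were lower at P0 than at E16 in the cochlea, as miR-21a-5p and the miR-146 pair were, and others were not. miR-223-3p, a miRNA of neutrophils and other myeloid cells, was at 1448, 228 and 575 CPM on average at E16, P0 and P16, and was called lower than at E16 at P0 (log2 fold change -2.67 ± 0.42 SE, edgeR FDR = 7.12e-09) and at P16 (-1.33 ± 0.41 SE, edgeR FDR = 0.00608). From P0 to P16 miR-223-3p was called higher (log2 fold change 1.34 ± 0.37 SE, edgeR FDR = 0.00336). miR-142a-3p, expressed across blood cells, was at 86.1, 12.1 and 27.4 CPM and was called lower at P0 (log2 fold change -2.76 ± 0.79 SE, edgeR FDR = 0.00389). miR-126a-3p, from endothelial cells, was at 6156, 1014 and 3826 CPM and was called lower at P0 and higher from P0 to P16, as miR-146b-5p and miR-223-3p were. The red cell miRNA miR-144-5p was at 151, 6.26 and 9.32 CPM.

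The lymphocyte miRNA miR-150-5p went the other way, from 650 through 2492 to 14540 CPM, and was called higher at both ages. Over the whole list of 5 leukocyte and microglia markers, 1 was called higher and 3 lower from E16 to P0 in the cochlea, where 7.81% and 16.6% of all miRNAs tested were. The list summed to 1960 to 2445 CPM at E16, 2082 to 3148 CPM at P0 and 6337 to 29470 CPM at P16, mostly from miR-150-5p, and miR-142a-5p and miR-223-5p were at 0 in all P0 libraries. Of the 3 erythroid markers counted, 2 were tested and both were called lower at P0 and at P16, where 16.6% and 18.6% of all miRNAs tested were. The erythroid list summed to 158 to 177 CPM at E16, 0 to 19.5 CPM at P0 and 0 to 30.6 CPM at P16, with miR-451a and miR-144-3p at 0 in all P0 and P16 libraries. The 5 neuronal markers summed to 2181 to 2555 CPM at E16, 475 to 701 CPM at P0 and 868 to 1269 CPM at P16. At P0 3 of them were called lower, where 16.6% of all miRNAs tested were: miR-124-3p at -3.03, miR-128-3p at -1.60 and miR-218-5p at -1.94 (log2). miR-124-3p was called higher from P0 to P16, at 1.94 (log2). miR-138-5p was called higher at P16 than at P0, at 2.46, and than at E16, at 1.87 (log2). Of the 9 sensory and epithelial markers, 2 were called lower at P0, where 16.6% of all miRNAs tested were: miR-429-3p at -2.14 and miR-200a-3p at -2.70 (log2). The part of these markers in the cochlea changes of the members was not tested. In bulk tissue, fewer cells of a type and less of the miRNA per cell cannot be told apart.

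**Figure D5:**
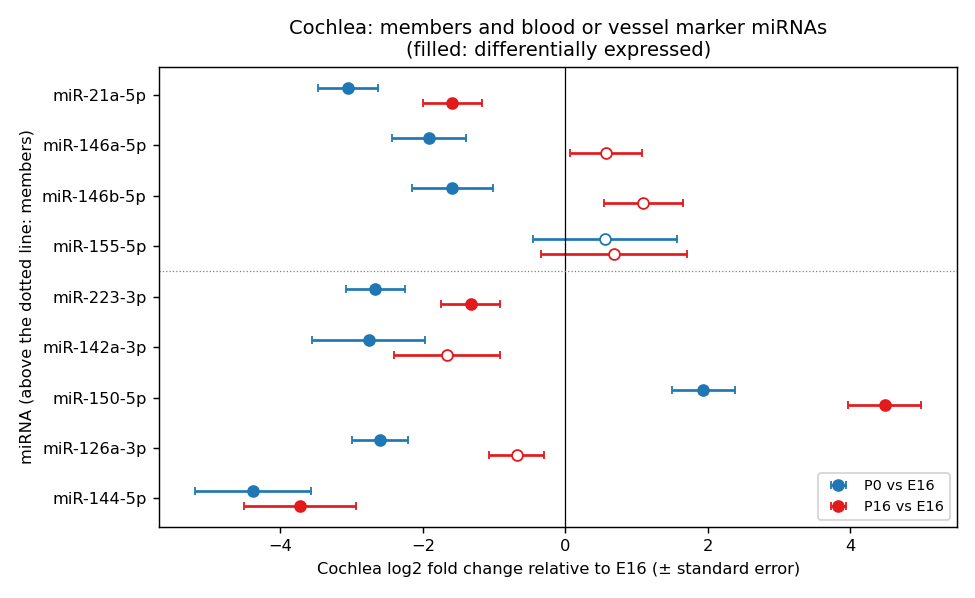
Log2 fold changes relative to E16 with standard errors (horizontal axis) in the cochlea, at P0 and at P16, for the 4 members tested (above the dotted line) and for marker miRNAs of leukocytes, vessels and red cells (below it). Filled points were called; miR-21a-5p (-3.06 at P0, -1.58 at P16) and miR-223-3p (-2.67 and -1.33) both lie below 0 at both ages, while miR-150-5p lies above 0.

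In the SOC the blood markers moved in both directions. The leukocyte list summed to 112 to 147 CPM at E16, 164 to 237 CPM at P0 and 665 to 841 CPM at P16, again mostly from miR-150-5p. That miRNA stood at 652 to 799 CPM at P16 and was called higher than at E16 at P0 (log2 fold change 1.24, edgeR FDR = 0.0381) and at P16 (log2 fold change 3.28, edgeR FDR = 0.000121). The red cell miRNA miR-451a was called higher at P16 (log2 fold change 1.52, edgeR FDR = 0.0192), while miR-223-3p was at 11.6, 5.43 and 2.38 CPM on average and was called lower at P16 (log2 fold change -2.28 ± 0.62 SE, edgeR FDR = 0.0117). In those libraries miR-21a-5p had means of 1380, 1535 and 1378 CPM.

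Other miRNAs linked to NF-kB and Toll-like receptor signalling, a list of 10 of which 8 were tested in the cochlea, moved in both directions. From E16 to P0 in the cochlea 2 were called higher and 1 lower, where 7.81% and 16.6% of all miRNAs tested were, with a median log2 fold change of 0.47 against 0.00 over all. Those higher were miR-125a-5p and miR-125b-5p, which target the NF-kB regulator A20, at 1.58 ± 0.48 SE (log2, edgeR FDR = 0.00693) and 1.87 ± 0.48 SE (log2, edgeR FDR = 0.000872). The miRNA called lower was miR-9-5p, a neural miRNA that also targets Nfkb1, at -1.26 ± 0.42 SE (log2, edgeR FDR = 0.0149). At P16, 2 were called higher and 2 lower than at E16, where 10.9% and 18.6% of all were, the second of the latter being miR-181b-5p, which targets the importin Kpna4 and so the entry of NF-kB into the nucleus, at -3.40 ± 0.56 SE (log2, edgeR FDR = 2.82e-08). Neither miR-146a-5p nor miR-146b-5p was called in that comparison.

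In the SOC all 10 were tested. From E16 to P0, 2 were called higher and 0 lower by edgeR, where 2.45% and 4.18% of all miRNAs tested were, and from E16 to P16, 1 was called higher and 1 lower, where 21.2% and 20% were. miR-132-3p, induced by neuronal activity and by Toll-like receptor ligands, was at 182, 499 and 1748 CPM on average and rose by 3.26 ± 0.42 SE (log2) from E16 to P16 (edgeR FDR = 0.000177). miR-10a-5p, which lies in a Hox cluster and restrains endothelial NF-kB, was at 4.01, 18.5 and 1.11 CPM and was called higher at P0 and lower at P16.

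Of the other strands and paralogues of the members, 4 were in the table: miR-21b, miR-146a-3p, miR-146b-3p and miR-155-3p. miR-21b and miR-155-3p passed the filter in the cochlea, miR-146b-3p passed it in the SOC, and miR-146a-3p passed it in neither. Of those tested none was called in any comparison by edgeR (the lowest FDR was 0.0926, for miR-21b from E16 to P16 in the cochlea, with an unadjusted p of 0.0380). All 4 lay at or below 7.18 CPM in every group mean, from a list sum of at most 27 counts in any library. miR-21b differs from miR-21a-5p by the substitutions C4U, G18A, G21U and A22C, the first of them in the seed, with positions counted from the 5′ end of miR-21a-5p. The SOC libraries gave 0 counts of miR-21b at E16 and at P16. The passenger strands of miR-146 and miR-155 were thus near the limit of detection in libraries of either kit, whereas miR-21a-3p was counted 298 to 1289 times in each SOC library. This contrast is of counts and not of the share of each hairpin. Over the SOC libraries at E16, P0 and P16, miR-146b-3p had 27, 48 and 15 counts beside 109, 474 and 158 of miR-146b-5p. miR-21a-3p had 2920, 2439 and 3253 counts there beside 71743, 79764 and 42053 of miR-21a-5p.

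The miRNAs whose log2 levels followed a member most closely over the libraries of an organ are given as a description, since libraries of 1 age share their levels. For cochlea miR-21a-5p they were miR-148a-3p (r = 0.969), miR-151-5p (r = 0.966) and miR-384-5p (r = 0.965), of 240 candidates over 10 libraries. For cochlea miR-146b-5p they were miR-24-3p (r = 0.956), miR-143-3p (r = 0.956) and miR-1a-3p (r = 0.912), and for cochlea miR-146a-5p miR-3071-3p (r = 0.883), miR-26a-5p (r = 0.874) and miR-143-3p (r = 0.847), so that the muscle and mesenchyme miRNA miR-143-3p stood in both lists. For cochlea miR-155-5p no r exceeded 0.617, that of let-7e-5p. In the SOC, over 11 libraries and 174 candidates, miR-21a-5p was followed most closely by miR-101a-3p (r = 0.838), miR-218-5p (r = 0.770) and miR-194-5p (r = 0.754), and miR-155-5p by miR-24-3p (r = 0.883), miR-93-5p (r = 0.857) and miR-532-5p (r = 0.757).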

How the data were processed

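Per the paper's methods, reads were aligned to a reference built from the mouse entries of MirGeneDB, and the submitters' processing notes name Bowtie2 2.2.5, DESeq2 and the build mm10. The authors deposited 1 table of raw counts for 1647 miRNAs by 21 libraries under names of the miRBase kind, and how these relate to that reference is not given in the sources used here; nor is the counting of reads that fit more than 1 miRNA. Totals were 124400 to 447419 counts in the cochlea and 8309669 to 18053698 in the SOC.

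From the counts, each organ was fitted with edgeR 4.0.16 (R 4.3.3; TMM; quasi-likelihood test; Benjamini-Hochberg FDR over all miRNAs tested), for miRNAs that exceeded 1 CPM in 2 or more libraries of an age. The organ-by-age interaction was fitted over all libraries. Standard errors were derived from the F statistic, and the 95% intervals from the t quantile. Ratios were taken with a pseudocount of 0.5 and tested by exact permutation of the absolute difference (scipy 1.17.1). Since miR-21a-3p was at 0 in the cochlea, 9 of the planned 12 ratio tests were made. Members, lists and the rule for named miRNAs (members, their lists, and the 3 highest r among miRNAs over 100 CPM, for members over 10 CPM) were chosen with earlier results of these data known. The fit was tested on simulated data. DESeq2 1.42.0, other scalings and filters, the replicate block, library sets and leaving out each library were the alternatives.

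Replicates carry numbers but no named pairing. In the SOC, same-numbered E16 and P0 libraries deviated together in 4 of 4 pairs (r from 0.251 to 0.490), while in no other comparison did all pairs, so that contrast was also fitted with the number as a block, and its ratios were tested within pairs (chosen after seeing the data). Of the 12 differently numbered pairs, 2 had an r over 0.1, at 0.409 and 0.255, both inside set A. Replicates 1, 2 and 3 each lay in the same set at E16 and P0, so number and set cannot be told apart for them. No replicates agreed within sampling noise (chi-square per degree of freedom at least 5.95). Libraries are pools, and p values measure only a spread between libraries. In the cochlea fit each test had 6272 degrees of freedom, against 12.36 in the SOC fit. The cochlea SE, intervals and FDR values therefore rest on a spread pooled over the 896 miRNAs tested, not on that of each miRNA alone. FDR values of the organs are not on a like footing.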

Additional observations from a re-analysis of the deposited data

Results flagged for a closer look

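Of 24 groups of 4 libraries examined, 3 had a library far from the others, and chance alone gives about 1 in 20. SOC E16 replicate 4 had 753 CPM of miR-21a-5p, where the other E16 libraries had 1521 to 1679 CPM. Cochlea P0 replicate 1 had 85.6 CPM of miR-146b-5p, from 16 counts, where the others had 19.5 to 25.7 CPM from 4 counts each; without it the log2 rise from P0 to P16 was 3.48 in place of 2.68. SOC P0 replicate 4 had 24.7 CPM of miR-155-5p, where the others had 6.58 to 9.35 CPM, and it also had the lowest miR-146a-5p and miR-146b-5p and the highest miR-21a-5p of the P0 libraries.

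Changes with age that differed between the organs by the interaction test were those of miR-146b-5p from E16 to P0 (SOC minus cochlea 3.39, log2), of miR-21a-5p from E16 to P0 (3.08) and of miR-146b-5p from P0 to P16 (-3.40).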

How the results depend on the processing

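Of the member results, the fall of miR-21a-5p from E16 to P0 in the cochlea and its difference from the SOC kept their direction and call under every alternative run. The number of members called was 3 in the cochlea from P0 to P16 with no criterion on overlap, and 0 there under library totals without factors, with no filter and with at least 10 counts per library. With at least 10 counts, 1 was called in the cochlea at P0, 1 in the SOC from E16 to P16 and 1 from P0 to P16, and 1 differed between organs from E16 to P0 and 0 from P0 to P16 (0 also with no filter); fewer miRNAs were then tested. In a fit of all 21 libraries, 1 was called in the cochlea at P0 and 0 from E16 to P16. DESeq2 called 1 in the SOC from E16 to P16 and 1 from P0 to P16. With the set as a covariate these SOC counts were 2 and 1, and without set C 1 was called from E16 to P0 and 2 from E16 to P16. Between the organs, 1 differed from E16 to P16 under totals and with the set as a covariate. Leaving out 1 library at a time gave 1 to 3 (P0), 0 to 2 (P16 against E16) and 0 to 3 (P16 against P0) in the cochlea, 0 to 1, 0 to 2 and 0 to 1 in the SOC, and 1 to 3, 0 to 0 and 0 to 1 between the organs. The cause was not tested.

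Signs turned only for log2 differences that were not called. For miR-21a-5p in the SOC from E16 to P16 (-0.0025) they were 0.0037 with RLE factors and with DESeq2, 0.15 with totals, 0.040 with at least 10 counts, 0.21 without set A and 0.25 in the fit of all libraries (leaving out libraries, -0.43 to 0.44); from E16 to P0 -0.11 with the set covariate and -0.040 without set C (-0.067 to 0.26); and from P0 to P16 0.069 in the fit of all libraries (-0.52 to 0.29). For miR-155-5p in the SOC they were -0.55 with the set covariate and -0.041 without set C from E16 to P16 (-0.038 to 0.34), 0.51 without set A from E16 to P0 (-0.75 to 0.049) and -0.13 without set A from P0 to P16; in the cochlea from P0 to P16 the range was -0.43 to 0.60. For miR-21a-3p, 0.12 without set A from E16 to P0; for miR-146b-5p, 0.72 with the set covariate from P0 to P16; for miR-146a-5p from P0 to P16, -0.26 to 0.70. Organ differences turned for miR-146b-5p from E16 to P16, 0.59 with totals, 0.45 with no filter and 1.49 with the set covariate (-0.27 to 0.37), and for miR-155-5p from P0 to P16, -0.052 with RLE factors, -0.051 with DESeq2 and -0.19 with the set covariate (-0.27 to 0.77). The log2 ratio of miR-146a-5p to miR-146b-5p was -0.022 with a pseudocount of 3 in the cochlea from P0 to P16 (-0.73 to 1.00), and leaving out libraries gave -1.65 to 0.089 from E16 to P0 there and -0.26 to 0.33 in the SOC from E16 to P16.

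Over all miRNAs, calls in the cochlea were 219, 265 and 94 (P0 and P16 against E16, P16 against P0), 98, 160 and 55 in the fit of all libraries and 90, 106 and 52 with at least 10 counts. Cochlea calls from P0 to P16 were 124 with no criterion on overlap, 91 under totals and 87 with no filter. In the SOC the calls were 46, 286 and 112, with 0, 104 and 15 without set A and 84, 325 and 167 by DESeq2. They were 189 from E16 to P16 with at least 10 counts, and 96 (set covariate) and 97 (without set C) from E16 to P0. Between the organs the calls were 65, 92 and 35, and 120, 138 and 78 with DESeq2, 143, 129 and 41 with totals, 169, 127 and 93 with the set covariate, 59, 60 and 19 with no filter and 32, 38 and 20 with at least 10 counts. Without 1 library, calls ranged over 114 to 255, 176 to 282 and 82 to 135 in the cochlea, 23 to 60, 209 to 366 and 66 to 248 in the SOC, and 31 to 91, 53 to 147 and 20 to 102 between the organs.

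With the replicate block, 0 members were called in the SOC from E16 to P0 (miR-146b-5p 1.73, edgeR FDR = 0.0582), and the block changed no other member call; pairing the ratios from E16 to P0 in the SOC changed no call either (p = 0.125 for both, exact permutation within 4 pairs); between the organs it gave 70 calls from P0 to P16 over all miRNAs. Elsewhere same-numbered libraries share only a number. Depth limits the cochlea values, where miR-155-5p had at most 11 counts.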
